A study of Mus musculus with 53 samples.

Results

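The 10 genes described here encode factors that build, stabilise and turn over the sarcomere, the contractile unit of striated muscle. They were chosen by name as 3 kelch-like genes (Klhl31, Klhl40 and Klhl41), 2 leiomodin genes (Lmod2 and Lmod3), the myosin chaperone gene Unc45b, the methyltransferase gene Smyd1 and the 3 MuRF ubiquitin ligase genes (Trim54, Trim55 and Trim63). All 10 were found among the 55573 genes of the bulk tables and in the P7 single-cell matrices. Whole mouse cerebella were sequenced in bulk at postnatal day 2 (P2) as 4 Insm1fl/fl controls, 4 Atoh1Cre;Insm1fl/fl mutants, 3 Tead1fl/fl;Tead2fl/fl controls and 4 Atoh1Cre;Tead1fl/fl;Tead2fl/fl mutants, 15 libraries in all. At postnatal day 7 (P7) single cells were profiled by split-pool barcoding from 2 controls and 3 mutants of each allele, 10 libraries in all, each from 1 cerebellum. Controls carried the floxed alleles that the mutants carried, so the groups differed by Cre. The Cre was driven by Atoh1, a gene of the granule cell lineage. The P2 libraries of the Insm1 and of the Tead1/2 series were made as 2 batches per the labels, so P2 tests compared mutants with controls within an allele. Replicate 1 of each P7 group came from a cerebellum with all lobules and the others from cerebella without lobules IX and X.

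INSM1 is a zinc finger repressor of neuroendocrine and neural progenitors, and TEAD1 and TEAD2 are DNA-binding partners of YAP and TAZ. In muscle, nebulin and the leiomodins set the length of actin thin filaments, and the kelch-like proteins KLHL40 and KLHL41 are stabilisers and ligase adaptors that protect nebulin and LMOD3. UNC45B folds the myosin head together with HSP90, SMYD1 acts with it in thick filament assembly, and the MuRF proteins bind titin and microtubules and mark sarcomere proteins for turnover. Losing several of these genes causes nemaline or cardiac myopathy in people and mice.

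The windows upstream of 6 of these genes are shown first, because Klhl31, Klhl41, Smyd1 and Unc45b were among the factors that rose at P2, and because the windows of Trim63 and Trim54 hold both strings searched. Sequences are the 250 bases before the annotated start, from RefSeq on GRCm38.p6, and 8 of the 10 genes had an entry. Capitals mark CATTCC, the core letters of TEAD sites, and CAGCTG, the E-box letters that myogenic factors such as MYOD1 bind, each searched on both strands (CATTCC reads GGAATG on the other strand). The windows lie at chr2:69669870-69670119 (plus strand) for Klhl41, chr9:77636482-77636731 (plus strand) for Klhl31, chr6:71262282-71262531 (minus strand) for Smyd1, chr11:82911003-82911252 (plus strand) for Unc45b, chr4:134314870-134315119 (plus strand) for Trim63 and chr5:31116362-31116611 (plus strand) for Trim54.
Klhl41: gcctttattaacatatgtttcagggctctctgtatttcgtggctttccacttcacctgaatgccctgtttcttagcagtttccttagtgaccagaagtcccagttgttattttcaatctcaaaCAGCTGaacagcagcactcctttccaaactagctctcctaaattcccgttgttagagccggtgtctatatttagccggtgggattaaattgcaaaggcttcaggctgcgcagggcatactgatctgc
Klhl31: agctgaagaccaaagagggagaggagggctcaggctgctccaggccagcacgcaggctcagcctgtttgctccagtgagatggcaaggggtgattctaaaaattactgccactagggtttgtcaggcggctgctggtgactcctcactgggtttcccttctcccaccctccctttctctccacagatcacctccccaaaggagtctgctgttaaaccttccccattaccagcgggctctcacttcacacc
Smyd1: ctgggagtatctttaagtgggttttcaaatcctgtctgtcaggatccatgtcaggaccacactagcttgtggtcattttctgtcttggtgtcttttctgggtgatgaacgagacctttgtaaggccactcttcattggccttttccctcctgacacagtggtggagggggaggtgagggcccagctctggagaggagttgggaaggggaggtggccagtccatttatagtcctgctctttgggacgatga
Unc45b: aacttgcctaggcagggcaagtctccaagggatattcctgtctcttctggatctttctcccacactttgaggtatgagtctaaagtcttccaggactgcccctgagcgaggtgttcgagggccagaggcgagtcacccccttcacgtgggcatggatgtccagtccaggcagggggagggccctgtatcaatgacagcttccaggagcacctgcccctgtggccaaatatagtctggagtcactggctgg
Trim63: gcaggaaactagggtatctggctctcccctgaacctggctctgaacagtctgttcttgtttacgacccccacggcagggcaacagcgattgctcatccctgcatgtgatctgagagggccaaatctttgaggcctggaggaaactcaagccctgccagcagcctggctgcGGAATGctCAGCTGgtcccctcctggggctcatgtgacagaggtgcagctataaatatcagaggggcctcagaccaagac
Trim54: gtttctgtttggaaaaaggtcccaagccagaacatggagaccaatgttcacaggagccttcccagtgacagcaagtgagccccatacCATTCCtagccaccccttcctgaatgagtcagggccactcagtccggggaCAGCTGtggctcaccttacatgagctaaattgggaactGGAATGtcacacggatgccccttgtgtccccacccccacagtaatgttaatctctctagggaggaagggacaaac

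The Klhl41 window held CAGCTG beginning 127 bases before the start and no CATTCC, and the Trim63 window held GGAATG at 80 and CAGCTG at 72 bases. Klhl31, Smyd1 and Unc45b held neither string, nor did Lmod2. Trim54 had CATTCC letters at 163 and 75 bases and CAGCTG at 113 bases, while positions in the Klhl40 window are not given, because that window overlaps the gene's annotated span. Of all 32841 promoter windows of this length, 12.6% held CATTCC, 13% held CAGCTG and 1.74% held both. These matches are letters in a window, and the chromatin data of the series were not analysed here.

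The targeted genes were read first. At P2, Insm1 RNA averaged 47.6 ± 19.98 CPM (counts scaled to library size by TMM, SD, n = 4) in its controls and 12.5 ± 3.66 CPM (SD, n = 4) in its mutants. Tead1 RNA did not separate, at 33.4 to 54.2 CPM in the controls and 38.1 to 50.7 CPM in the mutants, and Tead2 was 21.5 to 25.7 CPM in controls and 17.6 to 20.1 CPM in mutants 1 to 3. Which exons are deleted is not given in the sources used here, and reads outside them would still be counted. Mutant 4 of the Tead1/2 series had 26.2 CPM of Tead2, and its 21 skeletal muscle markers summed to 47.7 CPM against 205 to 273 CPM in mutants 1 to 3 and 46.5 to 53.4 CPM in the controls. It was also the mutant of its series with high Xist, at 704 CPM. It is called the library labelled mutant 4 below, and results are given with and without it. At P7, Tead2 was 29.98 and 31.5 CPM in the controls and 7.26 to 9.04 CPM in the 3 Tead1/2 mutants, while Tead1 was higher in these mutants, at 1138 to 1333 against 625 and 627 CPM. The bulk libraries held 28066643 to 64518751 expected counts and the P7 libraries 83474270 to 187710030 UMIs (unique transcript counts) in kept cells, and no cell barcode was shared between P7 libraries.

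At P2, loss of Insm1 was accompanied by higher levels of Klhl31, Klhl41, Lmod3, Unc45b, Smyd1 and Trim55, and Klhl40 was the tested gene that did not pass. Klhl31, an adaptor of the CUL3 ligase found in muscle, was 0.337, 0.322, 0.182 and 0.149 CPM in the 4 controls and 3.11, 3.66, 2.07 and 3.82 CPM in the 4 mutants. The lowest mutant was above the highest control, and the change was 3.64 on the log2 scale (SE 0.30). Here and below, P2 and P7 tests are edgeR's quasi-likelihood test with Benjamini-Hochberg adjustment over all genes tested, and a gene passed at an adjusted p under 0.05. Of 19582 genes tested, 0.689% passed in either direction and 0.48% passed upward, and 7 factors cleared the low-count filter. Of the 4 whose controls alone reached the filter's level, Klhl41, Unc45b and Smyd1 passed upward, without overlap between groups, and Klhl40 did not pass. Groups did not overlap in this direction for 2.77% of all genes tested. Klhl31, Lmod3 and Trim55 reached that level only with the mutants counted, so their calls after the filter are not used as support. With no low-count filter, 7 of the 10 factors passed upward (these 6 and Trim63), against 0.539% of 39360 genes (0.33% upward).

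Klhl41, which stabilises nebulin, was 0.699, 1.29, 0.334 and 0.417 CPM in controls and 8.66, 6.09, 4.03 and 6.87 CPM in Insm1 mutants. Its log2 change was 3.22 (SE 0.37, adjusted p = 0.00348), with control 2 the highest of the controls. Klhl40, a relative that protects nebulin and LMOD3, was 0.892, 1.13, 1.24 and 0.775 CPM in controls and 1.31, 1.31, 1.23 and 0.978 CPM in mutants. These groups overlapped, and the log2 change of 0.27 (SE 0.20) had an adjusted p of 0.713. Klhl40 also differed from the others in its control level, which was about that of its mutants in both alleles. Its annotated span overlaps the neighbouring gene Hhatl over 7185 bases. Hhatl was at 0.0243 to 0.239 CPM in the 15 libraries, against 0.775 to 1.5 CPM for Klhl40.

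The leiomodins, which nucleate actin filaments and lengthen thin filaments, were close to absent in Insm1 controls. Lmod3 had 0, 1, 0 and 0 counts in controls and 23, 19, 13 and 11 counts in mutants, so all mutants were above all controls. With 1 control count, the ratio of rates was 70.2 with a 95% counting interval of 12.2 to 2814, and the gene cleared the low-count filter through its mutant counts alone. Lmod2 had no count in any control and 9, 5, 2 and 1 counts in the mutants, which is at least 6.03-fold higher against a floor of 3 counts over the control group. That floor takes the 17 mutant counts as exact, and the 95% counting interval of the ratio, which does not, begins lower, at 4.39. It did not clear the low-count filter and was not tested.

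Unc45b, the chaperone of the myosin head, was 0.940, 1.10, 0.516 and 0.685 CPM in Insm1 controls and 3.49, 4.24, 2.27 and 3.15 CPM in mutants, with no overlap. Its log2 change was 2.02 (SE 0.26, adjusted p = 0.00630). A pair of annotated non-coding genes, Unc45bos and Slfn5os, overlaps its span, and strand use in the counting is not given in the sources used here. Smyd1, the muscle methyltransferase, rose from 0.627, 1.02, 0.788 and 0.507 CPM to 2.96, 3.02, 1.83 and 3.31 CPM. That was a log2 change of 1.93 (SE 0.25, adjusted p = 0.00688), and it too separated the groups.

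Among the MuRF ligases, Trim55 (MuRF2), which joins titin and microtubules during sarcomere assembly, changed most. It was 0.0482, 0.107, 0 and 0.0298 CPM in controls and 1.46, 1.16, 0.966 and 0.820 CPM in mutants, a log2 change of 4.44 (SE 0.45). Trim63 (MuRF1), the ligase best known from muscle wasting, had 11 counts over the 4 controls and 45 over the 4 mutants. Its ratio of rates was 4.35, with a 95% counting interval of 2.22 to 9.33, and it was below the low-count filter. Trim54 (MuRF3) had 2 and 6 counts, and its interval of 0.571 to 32.3 spans no difference.

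Control 2 of the Insm1 series was the highest control for Klhl41, Unc45b, Smyd1, Trim55 and Trim63, and its skeletal muscle markers summed to 66.8 CPM against 41.1 to 49.7 CPM in the others. Klhl41, Unc45b and Smyd1 also passed without it. Sex was unbalanced in this series: the 4 controls and mutants 1 and 2 had Xist at 631 to 1563 CPM, and mutants 3 and 4 had the Y-linked Ddx3y at 58.2 and 53.7 CPM. With a term for high Xist in the fit, Klhl41, Unc45b and Smyd1 passed again, against 0.449% of genes (0.332% upward). With a replicate block Klhl41 and Unc45b passed and Smyd1 did not, against 0.327% of genes (0.245% upward). Skeletal muscle markers as a whole moved with the factors: all 21 summed to 41.1 to 66.8 CPM in controls, with 1 to 5 of them at 0, and to 196 to 308 CPM in mutants, with at most 1 at 0. In whole tissue, fewer or more muscle-like cells and less or more RNA per cell cannot be told apart. The part of either in the change was not tested at P2.

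**Figure D1:**
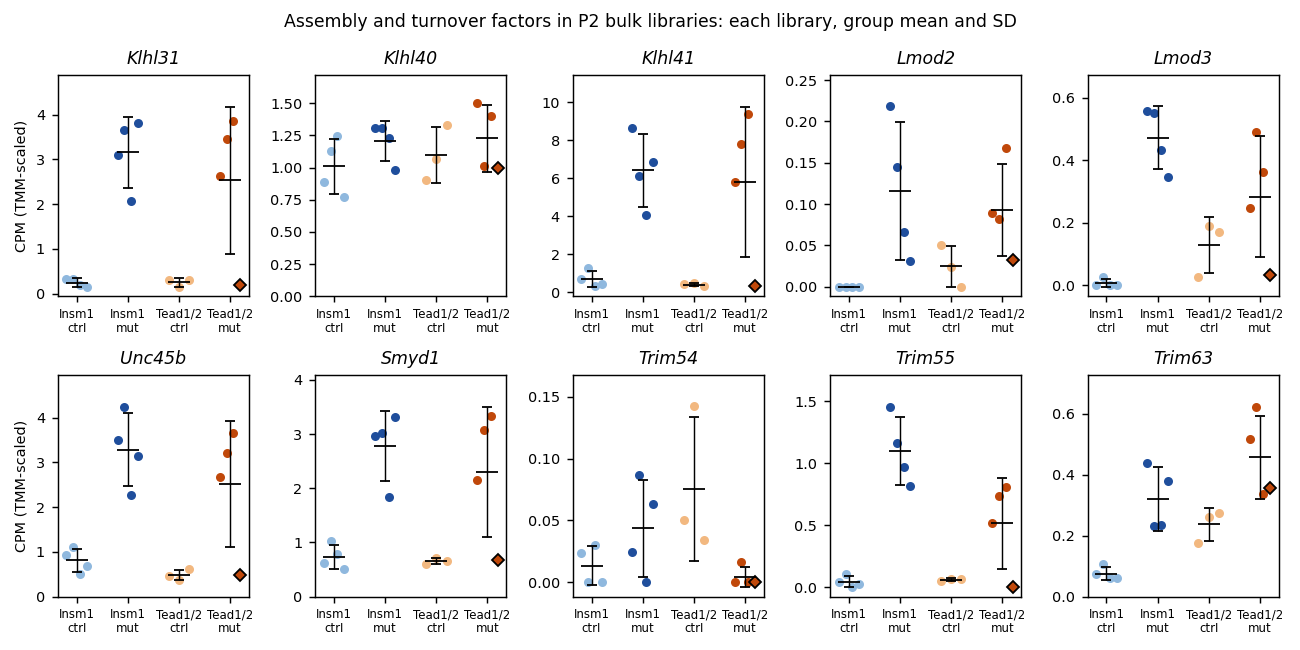
TMM-scaled CPM of the 10 factors in each of the 15 P2 bulk libraries (points), with the group mean (long tick) and SD (bars), on a separate linear axis for each gene. The library labelled Tead1/2 mutant 4 is drawn as an outlined diamond and lies at the level of the controls for Klhl31, Klhl41, Unc45b and Smyd1 and at 0 for Trim55, and Klhl40 overlaps between groups in both alleles.

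In the Tead1/2 series at P2, the same genes were high in mutants 1 to 3 and at the control level in the library labelled mutant 4. With all 7 libraries no gene passed in edgeR's main fit, which has the low-count filter and no further term. With a replicate block 1.17% of genes passed, and with a sex term 0.0148%. The factor counts of these 2 fits are given in the last section. Klhl31 was 0.301, 0.142 and 0.307 CPM in controls and 2.62, 3.45, 3.86 and, in mutant 4, 0.193 CPM. Klhl41 was 0.401, 0.474 and 0.307 CPM in controls and 5.79, 7.77, 9.37 and 0.322 CPM in mutants. Both genes thus had 3 mutants far above the controls and 1 within them.

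Unc45b followed the same order, at 0.451, 0.379 and 0.615 CPM in controls and 2.67, 3.22, 3.66 and 0.483 CPM in mutants. Smyd1 was 0.601, 0.711 and 0.649 CPM in controls and 2.15, 3.07, 3.33 and 0.676 CPM in mutants. Trim55 was 0.0501, 0.0711 and 0.0683 CPM in controls and 0.516, 0.735, 0.811 and 0 CPM in mutants. Over the 10 factors, the summed level was 3.01 to 3.76 CPM in controls, 16.1 to 23.3 CPM in mutants 1 to 3 and 3.09 CPM in mutant 4.

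With mutant 4 included, 0 of 20247 genes passed in the main fit (0%). There, the 7 factors tested had adjusted p values from 0.0921 for Klhl41 to 0.782 for Klhl40. The log2 changes were 3.83 for Klhl41 (SE 0.84), 3.36 for Klhl31 (SE 0.78), 3.01 for Trim55 (SE 0.90), 2.40 for Unc45b (SE 0.56) and 1.80 for Smyd1 (SE 0.44). DESeq2 on the same 7 libraries, without edgeR's low-count filter, called 4 of the factors and 1026 of 40946 genes (2.51%, 1.75% upward). DESeq2's own default filter on mean count gives some of these genes no adjusted p, and they are counted as not called. Without its low-count filter, edgeR called 5 of the 10 factors (Klhl31, Klhl41, Unc45b, Smyd1 and Trim55), and 3.14% of 40946 genes passed, 1.93% upward. At an unadjusted p under 0.05, edgeR counted 4052 genes and 6 of the 7 factors. Without the library labelled mutant 4, which was set apart by its own levels, edgeR called 646 of 20234 genes (3.19%), 1.98% upward. Of the 4 factors whose controls alone reached the filter's level, Klhl41, Unc45b and Smyd1 passed upward and Klhl40 did not pass. Klhl31, Trim55 and Trim63 reached it only with the mutants counted.

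The changes without mutant 4 were 4.21 for Klhl41 (SE 0.23, adjusted p = 1.68e-05), 3.71 for Klhl31 (SE 0.28), 3.36 for Trim55 (SE 0.40), 2.71 for Unc45b (SE 0.23, adjusted p = 0.000263) and 2.08 for Smyd1 (SE 0.22, adjusted p = 0.00107), on the log2 scale. In Klhl41, Unc45b and Smyd1 the groups did not overlap, against 17.7% of all genes in the upward direction for these 6 libraries. The library left out was set apart partly by its control-level muscle markers, which run with these genes. Leaving it out favours small p values and no overlap, so neither is used as support. Trim63 was the one that did not overlap even with mutant 4 included, at 0.175, 0.261 and 0.273 CPM in controls and 0.516, 0.621, 0.336 and 0.354 CPM in mutants. It did not pass with mutant 4 (log2 0.97, adjusted p = 0.170) or without it (log2 1.06, adjusted p = 0.141), and 13.3% of all genes showed no overlap of this kind with all 7 libraries.

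The remaining factors had few counts or overlapping groups. Klhl40 was 0.902, 1.07 and 1.33 CPM in Tead1/2 controls and 1.5, 1.01, 1.40 and 0.998 CPM in mutants, a log2 change of 0.14 (SE 0.24). Lmod3 had 1, 8 and 5 counts in controls and 11, 30, 13 and 1 counts in mutants, and Lmod2 had 2, 1 and 0 counts against 4, 5, 6 and 1. In CPM, both leiomodins were higher in each of mutants 1 to 3 than in any control, and mutant 4 lay within the control range. Both were below the low-count filter and were not tested. The share of all genes with so few counts that separate in this way was not determined. Setting mutant 4 apart favours such a separation, so it is a description. Trim54 had the opposite order, with 2, 6 and 1 counts in controls and 0, 1, 0 and 0 in mutants. Its ratio of rates was 0.0677, with a 95% counting interval of 0.00154 to 0.488, and an annotated non-coding gene, Gm15469, overlaps its span by 1682 bases.

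Both P2 effects were compared in 1 fit over the 15 libraries. None of the 20837 genes passed (0%) and none of the 8 factors tested passed, with adjusted p values from 0.541 for Lmod3 to 0.980 for Smyd1. The Tead1/2 effect minus the Insm1 effect was 0.62 for Klhl41 (SE 1.01), 0.38 for Unc45b (SE 0.65), -1.10 for Trim63 (SE 0.52), -0.13 for Klhl40 (SE 0.31), -0.12 for Smyd1 (SE 0.55), -0.29 for Klhl31 (SE 0.97) and -1.45 for Trim55 (SE 1.34) on the log2 scale. For Lmod3 the fitted difference was -4.36 (SE 1.27). The errors of Klhl31, Klhl41 and Trim55 cover differences of several fold, and that of Klhl40 does not. At an unadjusted p under 0.05 edgeR counted 1435 genes and 1 factor, Lmod3, whose Insm1 controls held 1 count, and DESeq2 called 14 genes and no factor. The missing call does not show that the 2 mutations act alike.

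Across the 15 P2 libraries, the genes whose log2 CPM ran closest to the mean of the 6 factors tested in both alleles were Actc1 (r = 0.987), Ttn (0.985), Mymk (0.982), Mymx (0.980) and Myh3 (0.979), out of 19384 genes. They encode cardiac actin, titin, the fusion proteins myomaker and myomixer, and embryonic myosin. These libraries share groups and the mutant 4 library, so the values are a description. Klhl31, Klhl41, Unc45b, Smyd1 and Trim55 had r between 0.979 and 0.991 with that mean, of which each is a part, and Klhl40 had 0.512.

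The genes around the factors moved unevenly at P2. The lists used here were chosen with earlier results of these data known. Whether controls alone brought their genes to the filter's level was not determined, so the counts are descriptions. Among 26 filament and Z-disc genes that the factors fold, cap or mark, 11 of 19 tested rose in Insm1 mutants, against 0.48% of all genes. Their median log2 change was 0.99 against 0.01 over all genes. Ttn (2.54), Myh3 (4.22), Acta1 (2.15) and the Z-disc gene Myoz2 (4.48) were among those that rose. None of 12 tested relatives in the same families passed, and Tmod1, a thin filament cap, was at 0.56 (adjusted p = 0.196). One of 20 chaperone and ligase partners rose, the small heat shock gene Hspb2 (4.22), and 3 of 8 muscle transcription factors did, Mef2c (0.37), Tead4 (1.06) and Myog (4.52). Without mutant 4, Tead1/2 counts were 8 of 19 filament genes, 0 of 13 relatives, 1 of 20 partners and 4 of 9 transcription factors. They were led by Actc1 (5.72), Hspb2 (3.85) and Myog (7.08), and 1.98% of all genes passed upward. With mutant 4, none of these passed in the main fit.

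At P7, all 10 factors were higher in the mutants of both alleles, including Klhl40, Trim54 and Trim63. UMIs were summed within each library over its kept cells, 76645 in all, and levels are CPM computed from these UMI sums. For Insm1, Klhl31 was 0.707 and 0.585 in the controls, then 47.0, 52.3 and 48.4 in the mutants. For Tead1/2 the controls had 0.383 and 0.474, the mutants 120, 129 and 91.5, and the log2 changes were 6.26 (SE 0.19, adjusted p = 1.75e-08) and 8.05 (SE 0.21, adjusted p = 4.59e-09). In every one of the 10 genes, the lowest mutant library was above the highest control library of its allele. The share of all genes that did so was not determined at P7, where 18.9% and 26% of all genes passed upward. The separation is therefore a description.

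Klhl41 went from 1.97 and 1.80 to 90.2, 92.8 and 84.3 CPM in Insm1 mutants, and from 1.56 and 1.53 to 204, 214 and 160 in Tead1/2 mutants. The log2 changes were 5.57 (SE 0.14) and 6.95 (SE 0.16). Klhl40, flat at P2, stood at 0.529 and 0.486 without Cre and at 6.01, 7.81 and 5.70 with it in the Insm1 series. In the Tead1/2 series these levels were 0.595 and 0.717 without Cre, then 20.9, 15.8 and 11.9 with it. Its log2 changes of 3.69 (SE 0.27) and 4.62 (SE 0.28) were the smallest of the 10 factors in each allele.

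The leiomodins were among the larger changes. Lmod2 was 0.108 and 0.0788 in Insm1 controls and 8.03, 8.08 and 6.01 in mutants, and Lmod3 was 0.210 and 0.256 against 18.2, 17.7 and 16.2. Their log2 changes were 6.30 (SE 0.24) and 6.23 (SE 0.19) in the Insm1 series, and 7.67 (SE 0.26) and 7.45 (SE 0.20) in the Tead1/2 series. Lmod3 reached 57.0, 52.2 and 40.8 in the Tead1/2 mutants from 0.285 and 0.278 in their controls.

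Unc45b was 0.732 and 0.939 in Insm1 controls and 33.4, 40.3 and 35.8 in mutants, and 1.14 and 1.13 against 88.4, 97.6 and 65.3 in the Tead1/2 series. Smyd1 had the highest control level relative to its mutants after Klhl40, at 4.03 and 3.88 against 54.7, 61.8 and 57.5, and at 3.06 and 3.23 against 136, 141 and 93.8. Log2 changes were 5.46 (SE 0.21) and 6.19 (SE 0.22) for Unc45b, and 3.89 (SE 0.18) and 5.29 (SE 0.19) for Smyd1.

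Of the MuRF genes, Trim55 was 0.860 and 0.736 in Insm1 controls and 113, 115 and 112 in mutants, the largest change of that allele at 7.17 on the log2 scale (SE 0.22). In the Tead1/2 series it was 0.692 and 1.06 against 159, 188 and 130, a change of 7.52 (SE 0.22). Trim63 rose by 5.40 (SE 0.30) and 6.02 (SE 0.29). Trim54, with 5 and 11 UMIs in all over the 2 control groups, rose by 5.99 (SE 0.38) and 6.07 (SE 0.33), to 1.08 ± 0.109 (SD, n = 3) and 3.60 ± 0.853 (SD, n = 3) CPM.

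Many genes changed at P7: 34.7% of 24132 genes passed in the Insm1 series, 18.9% upward, and 48.8% in the Tead1/2 series, 26% upward. All 10 factors passed upward in each allele, but for Lmod2 and Trim54 the controls of either allele did not reach the filter's level by themselves. With no low-count filter all 10 passed in both alleles as well, against 19.3% (10.6% upward) and 27.8% (15.8% upward) of 41102 genes. These counts are to be read against those shares, and the sizes against a median log2 change over all genes of 0.04 and 0.06. The median over the 10 factors was 5.78 and 6.57. Of the filament and Z-disc genes, 25 of 26 rose in each allele, with medians of 5.68 and 7.52. Relatives of the factors were split, with 8 of 17 higher and 2 lower in the Insm1 series and 9 higher and 3 lower in the Tead1/2 series, Tmod1 (3.96 and 4.96) and the membrane repair gene Trim72 (3.98 and 4.87) among the higher. Partners were 10 of 22 higher and 3 lower, and 13 higher and 4 lower, with Hspb2 (5.32 and 7.55), Cryab (4.49 and 5.71) and Asb2 (5.66 and 6.62) rising in both. Transcription factors rose in 12 and 11 of 12.

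**Figure D2:**
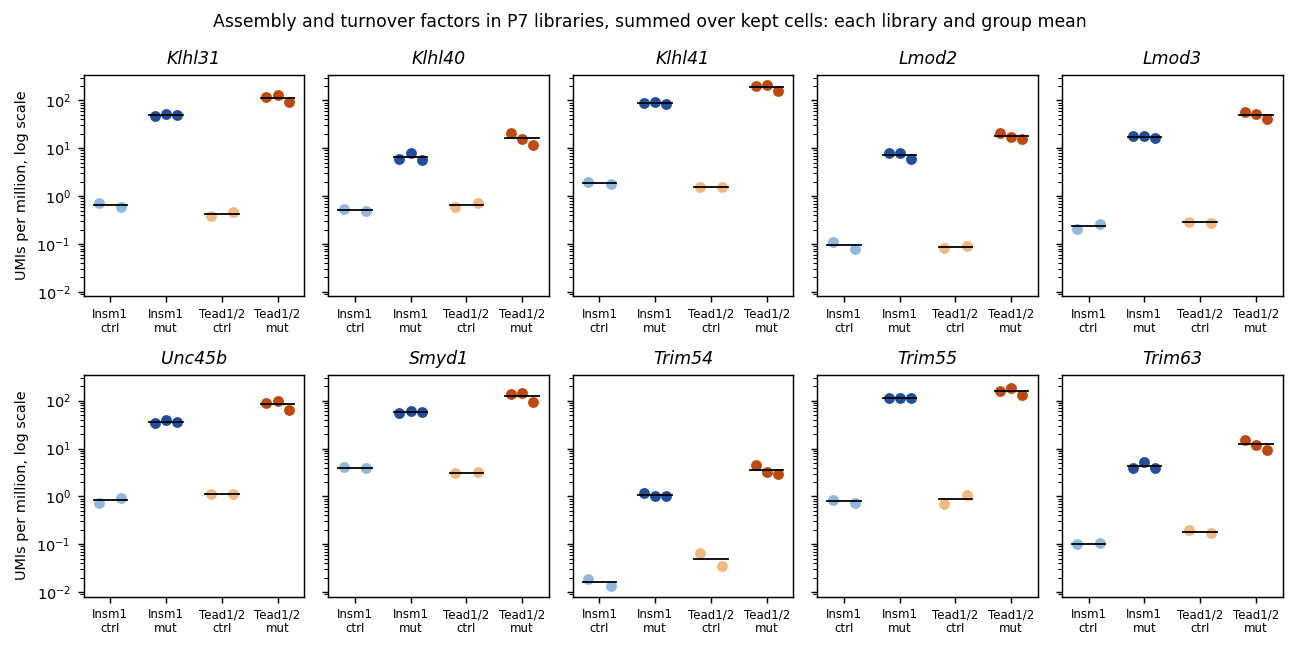
CPM of each factor, summed over the kept cells of each of the 10 P7 libraries (points) with the group mean (line), on a shared log axis. In every panel the 3 mutant libraries of an allele lie above its 2 control libraries, from Klhl40 with the smallest gap to Trim55 in the Insm1 series and Klhl31 in the Tead1/2 series with the widest. The share of all genes that separate in this way was not determined.

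The Tead1/2 effect was larger than the Insm1 effect for 4 factors when the difference itself was tested at P7. It was larger by 1.79 on the log2 scale for Klhl31 (SE 0.26, adjusted p = 0.00830), by 1.40 for Smyd1 (SE 0.22, adjusted p = 0.0106), by 1.37 for Klhl41 (SE 0.18, adjusted p = 0.00541) and by 1.23 for Lmod3 (SE 0.29, adjusted p = 0.0482). Of all genes, 3.6% passed this test and 2.15% passed in that direction. Lmod3 lost the call when any 1 of 8 of the 10 libraries was left out, with adjusted p values up to 0.205 without Insm1 control 2. Over all deposited barcodes, Klhl31 (0.71, adjusted p = 0.252) and Lmod3 (0.84, adjusted p = 0.0954) did not pass, and Lmod3 did not pass either in cells that Scrublet left at its own threshold (adjusted p = 0.473).

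For the other 6 factors, the differences were 0.07 for Trim54, 0.35 for Trim55, 0.61 for Trim63, 0.73 for Unc45b, 0.93 for Klhl40 and 1.37 for Lmod2, and did not pass. The SE was 0.27 for Trim55. None is given for Trim54, because the SE used here divides the change by a test statistic that was near 0. With 1 library left out at a time, the Trim54 difference ran from -0.23 to 0.66. Among filament genes 17 of 26 passed with a larger Tead1/2 effect, against 2.15% of all genes, with a median of 1.72. The sums of whole libraries hold different shares of muscle-like cells, given below, and a level per cell cannot be told apart from a number of cells in these sums.

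**Figure D3:**
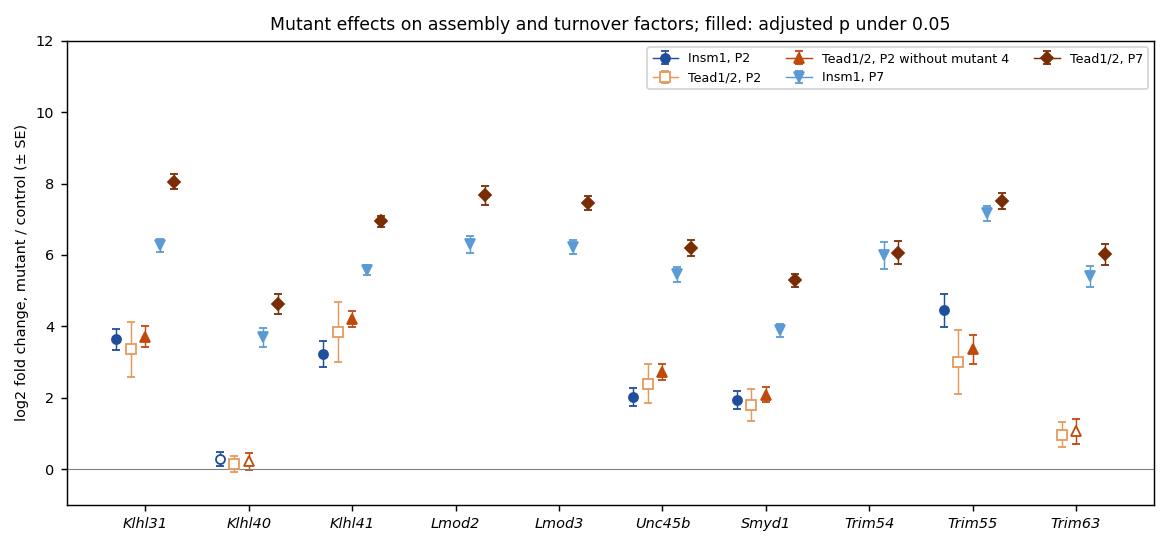
Log2 fold change of mutants over controls (± SE) for each factor in 5 comparisons, with filled symbols where the adjusted p was under 0.05 and open symbols where it was not. Only fits that tested the gene are drawn, and Lmod3 at P2 in the Insm1 series is left out because its controls held 1 count. Klhl40 sits near 0 at P2 in both alleles and at 3.69 and 4.62 at P7.

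The number of cells holding these RNAs was read after thinning each cell to 2000 UMIs. The Insm1 controls had a UMI of any factor in 1.60% and 1.80% of their cells, the Insm1 mutants in 18.7%, 19.8% and 22.3%. For Tead1/2 the shares were 1.57% and 1.45% against 27.6%, 38.8% and 28.3%. The differences of 18.5 and 30.1 percentage points had no overlap between groups, and the two-sided exact permutation test gave p = 0.2 for both, the smallest that 2 against 3 libraries allow. Without thinning the shares were 9.90% and 10.54% against 30.5% to 38.9%, and 8.56% and 9.37% against 36.9% to 53.6%. UMIs of 2 or more factors in the same thinned cell occurred in at most 0.0395% of control cells and in 9.60% to 26.1% of mutant cells. Microglia-like cells, which should lack these RNAs, had a factor UMI in 5.77% of 52 thinned control cells and 1.31% of 153 mutant cells for Insm1, and in 2.28% of 219 and 6.16% of 747 for Tead1/2, at median depths of 3516 to 4594 UMIs.

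Cells were clustered without the 10 factors. At its own threshold the doublet caller Scrublet marked 34275 of 79838 cells as doublets. Cell classes were therefore described in cells that Scrublet did not mark. In those, 3 clusters with cells of every mutant library carried many of the 21 skeletal muscle markers: cluster 29 (2221 cells, 10 markers, led by Esr1, Alk, Cdkn1c and Myog), cluster 30 (1402 cells, 16 markers) and cluster 27 (1293 cells, 20 markers, led by Myh8, Myh3, Trp63 and H19). Cluster 30 stayed unnamed under the marker rule because its leading genes included Acta2, a smooth muscle marker. The 3 clusters held at most 0.0586% of cells in any control library, 11.3% to 12.4% in Insm1 mutants and 19.4% to 25.5% in Tead1/2 mutants. Shares are of the cells left after filtering. A small cluster, 25, had 15 of the markers and 73 cells, of which 71 came from Insm1 mutant 2 (1.59% of that library's cells), and it is not part of these shares.

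The factors were not detected alike across these clusters. Values are mean shares of thinned cells with a UMI over the mutant libraries that had 20 cells or more, which are 6 libraries for clusters 29 and 30 and 5 for cluster 27. Trim55 was found in 65.9%, 82.8% and 55.6% of cells in clusters 29, 30 and 27, and Klhl41 in 39.8%, 79.3% and 71.3%. Klhl31 was found in 31.7%, 46.3% and 53.4%. These 3 genes were therefore frequent in cluster 29 too, where the myogenic factor Myog was found in 67.1% of cells. Sarcomere genes were unevenly found in cluster 29, with Actc1 in 57.8%, Ttn in 57.5%, Tnni1 in 28.4% and Myh3 in 18.7% of cells, and Neb and Acta1 in 3.49% and 1.26%.

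Smyd1 and Unc45b were lower in cluster 29 than in the other pair, at 21.3%, 58.7% and 57.5% for Smyd1 and 18.7%, 56.3% and 42.4% for Unc45b. Lmod3 was found in 0.699%, 8.86% and 35.6% of cells, Lmod2 in 2.12%, 7.73% and 13.9%, and Klhl40 in 0.733%, 8.61% and 13.5%. Trim63 (0.732%, 4.55% and 11.0%) and Trim54 (0%, 0.227% and 3.81%) were highest in cluster 27, where Neb was found in 94.0% and Myh3 in 99.5% of cells. Cells of these clusters had median depths of 5284, 7308 and 15818 UMIs before thinning, and clusters are not shown to follow each other in time.

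**Figure D4:**
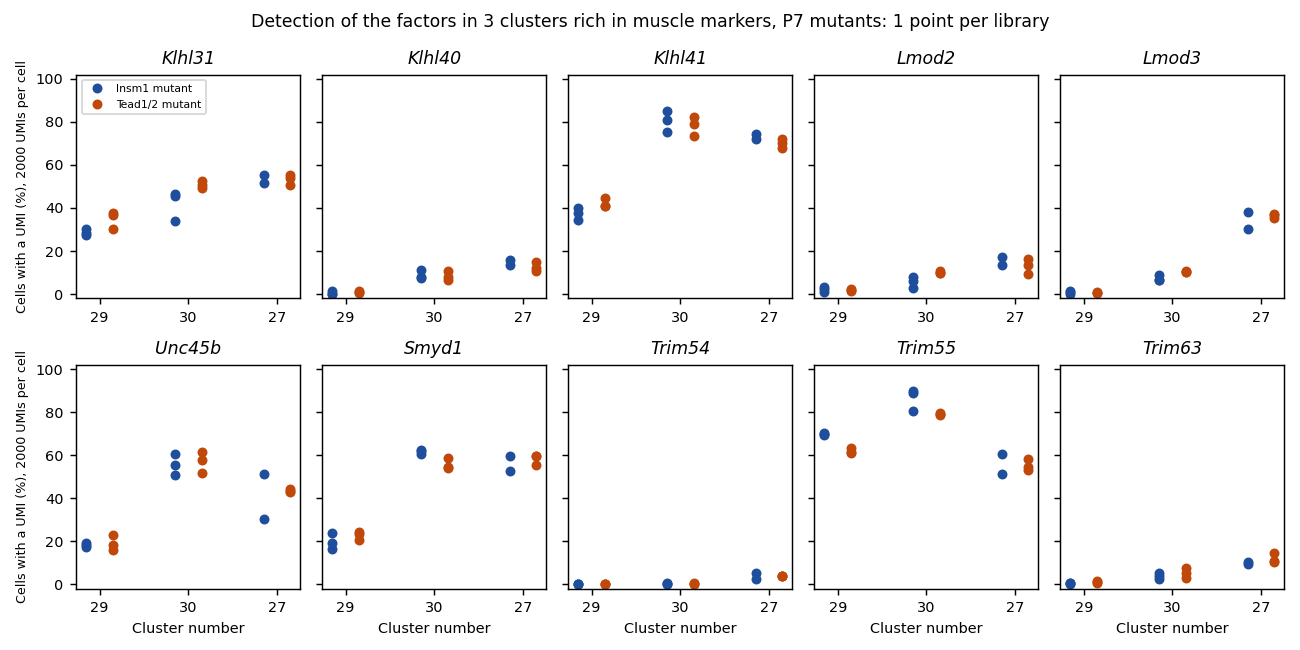
Share of cells with a UMI of each factor after thinning to 2000 UMIs, in clusters 29, 30 and 27, with 1 point for each mutant library that has 20 cells or more in the cluster (Insm1 mutant 3 is left out of cluster 27). Trim55 is highest in cluster 30 in both alleles and Lmod3 in cluster 27, while Trim54 stays under 6% everywhere.

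The muscle-like cells of both mutants were then compared with each other, as sums over clusters 8, 12, 27 and 28 of all kept cells, whose numbers differ from those above. Mutants were set against mutants without controls, so the allele deleted and the series of animals cannot be told apart here. Control levels of the 2 series differed for Tead2, at a mean of 64.7 CPM (Insm1) and 30.7 CPM (Tead1/2) over all kept cells. Clusters 31 (11 muscle markers) and 34 (18 muscle markers) of the kept cells stayed unnamed under the marker rule and were left out of the sums. Cluster 27 of the kept cells, with 1064 cells and 20 muscle markers, also carried 8 astroglia markers and was part of the sums. The part of doublets in these sums was not tested. All 10 factors were higher in Tead1/2 mutants, by 0.25 (Trim55, SE 0.07, adjusted p = 0.0225) to 1.42 (Trim54, SE 0.23, adjusted p = 0.00263) on the log2 scale, in a comparison where 30.3% of 18217 genes passed and 15.8% passed upward. Lmod3 was 65.3, 56.7 and 50.4 CPM in the Insm1 mutants and 140, 103 and 128 in the Tead1/2 mutants. This result depended on which cells were summed. Over the named muscle-like clusters of cells that Scrublet did not mark (25, 27 and 29), none of the 10 factors passed, against 1.75% of 13984 genes (0.744% upward), with log2 differences from -0.41 (Trim55, adjusted p = 0.0930) to 1.36 (Trim54, adjusted p = 0.0910). At an unadjusted p under 0.05, all 10 factors and 3600 genes were counted there.

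Clusters 29 and 30 were also tested one at a time, again mutants against mutants, and cluster 27 was not. In these tests too, the allele deleted and the series of animals cannot be told apart. There, Trim55 had the other sign. In cluster 29, 6 factors were tested and Trim55 was the 1 that passed, lower in Tead1/2 mutants at -0.42 (SE 0.08, adjusted p = 0.00381), where 5.4% of 9984 genes passed and 2.21% passed downward. In cluster 30, 9 were tested and again Trim55 alone passed, at -0.47 (SE 0.08, adjusted p = 0.00125), where 3.77% of 9976 genes passed and 1.68% passed downward. In cluster 30 Trim55 was at 1090 to 1159 CPM in the 3 Insm1 mutants and at 762 to 827 in the 3 Tead1/2 mutants. The other 8 factors there had differences between -0.09 (Klhl41) and 0.39 (Lmod3). The mix of clusters differed between the alleles: cluster 27 made up 1.87%, 2.13% and 0.450% of cells in the Insm1 mutants and 6.93%, 6.53% and 6.44% in the Tead1/2 mutants.

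Outside muscle-like cells, Klhl31 and Trim55 were raised in clusters named as the granule cell lineage, where Atoh1Cre acts. Controls and mutants filled different clusters of this class: clusters 6, 7 and 10 held 27, 1 and 10 control cells of 3285, 3260 and 2141, and clusters 9, 15 and 16 held 5142, 4801 and 2379 of 6139, 5756 and 2972. Clusters 3 and 13, with 8 and 9 granule progenitor markers and 3150 and 3452 control cells of 3207 and 3846, stayed unnamed and were left out of the sums. So was cluster 11, with 10 granule neuron markers and 2396 mutant cells of 2397, and the part of these choices in the values was not tested. Over clusters named granule progenitor-like or granule neuron-like, Klhl31 was 0.958 and 0.807 CPM in Insm1 controls and 11.6, 13.9 and 13.6 in mutants, a log2 change of 3.88 (SE 0.36, adjusted p = 1.16e-05). In the Tead1/2 series it was 0.194 and 0.623 against 13.2, 27.2 and 21.4, a change of 5.77 (SE 0.40). Trim55 was 0.639 and 0.538 against 8.66, 7.56 and 8.49, and 0.895 and 1.21 against 9.32, 11.4 and 7.15, which are changes of 3.80 (SE 0.26) and 3.17 (SE 0.23).

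In Insm1 mutants, 3 of the 5 factors whose controls alone reached the filter's level rose (Klhl31, Trim55 and Klhl41 at 1.21), where 19.8% of 16988 genes passed and 12% passed upward. In Tead1/2 mutants 2 of 4 such factors rose (Trim55 and Klhl41 at 1.95), where 21.8% passed and 12.9% upward. The others did not reach that level in the controls of their own allele. Among them were Unc45b (1.66 in both alleles) and, in the Tead1/2 series, Klhl31, Trim63 (2.23) and Lmod3 (1.44). Klhl31 did reach it in the 2 Insm1 controls, which were part of the same fit. With no low-count filter, 5 of 10 factors passed in the Insm1 series (Klhl31, Klhl41, Unc45b, Trim55 and Lmod3), against 11.4% of 33963 genes (6.32% upward). In the Tead1/2 series 6 of 10 did (those 5 and Trim63), against 12.3% (7.17% upward). Klhl40, Smyd1 and Lmod2 (1.56 and 1.47) did not pass in either allele, and Trim54, with 7 UMIs in Tead1/2 controls and 3 in Tead1/2 mutants and none over the Insm1 libraries, was not tested. Smyd1 was 4.18 and 3.59 against 3.48, 3.97 and 3.83, and 2.98 and 3.25 against 4.80, 4.94 and 3.32 CPM, so its granule-lineage level in controls was about its whole-library control level. In cells not marked by Scrublet, Klhl31 (3.54), Trim55 (2.93) and Klhl41 (1.11) passed in the Insm1 series, where 20.5% of 16652 genes passed and 12.6% upward. Among Tead1/2 libraries the same 3 (5.18, 3.00 and 1.64) passed with Unc45b (1.64), where 18.9% passed and 11.3% upward. The Tead1/2 controls alone did not bring Klhl31 and Unc45b to the filter's level there. Trim63 (1.95) and Lmod3 (1.67) in the Tead1/2 series and Unc45b (1.35) in the Insm1 series did not pass there, and lost the call when certain single libraries were left out.

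Other muscle genes moved in the same granule-lineage sums. Of 19 filament genes, 6 rose in Insm1 mutants and 16 in Tead1/2 mutants, against 12% and 12.9% of all genes. Whether controls alone brought these genes to the filter's level was not determined. Actc1 rose by 1.98 and 2.38, and Myog by 4.28 and 3.61. The part of free RNA or doublets from muscle-like cells in these levels was not tested. In mutants, UMIs of Klhl31 relative to Klhl41 stood at 0.340 to 0.602 in clusters 29, 30 and 27, at 0.889 and 0.872 in astroglia-like cells, and at 5.93 (Insm1) and 3.61 (Tead1/2) in granule progenitor-like cells. In granule neuron-like cells the ratio was 0.731 and 1.66, and in GABAergic interneuron-like cells 1.44 and 0.633. UMIs of Trim55 relative to Klhl41 stood at 0.592 to 2.64 in clusters 29, 30 and 27. In granule progenitor-like cells they lay within that range, at 2.22 (Insm1) and 1.20 (Tead1/2). Klhl31 averaged 21.7 and 25.3 CPM in granule progenitor-like cells of the 2 mutants, against 2.47 and 4.96 in astroglia-like cells. Klhl41 differed less, at 3.27 and 7.06 against 2.39 and 5.78.

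Of the Klhl31 UMIs in granule progenitor-like cells, 241 of 273 in Insm1 mutants and 694 of 744 in Tead1/2 mutants lay in cluster 24, a granule progenitor-like cluster of 2594 cells of which 2593 came from mutants, 756 Insm1 and 1837 Tead1/2. It carried 7 progenitor markers, among them Barhl1, Gli1 and Mki67 but not Atoh1, and 2 of the 21 skeletal muscle markers, and was led by Tacr1, Pkdcc, Cenpp and Fgfr4. Klhl31 was at 53.0, 51.5 and 38.5 CPM in the Insm1 mutant libraries and at 37.9, 63.5 and 45.0 in the Tead1/2 mutant libraries, and 9.97% of its thinned cells had a Klhl31 UMI. The ratio of Klhl31 to Klhl41 UMIs was 9.64 and 5.55 there. Trim55 was found in 2.83% of these thinned cells, Klhl41 in 1.71%, Smyd1 in 0.815% and Unc45b in 0.233%. Of granule-lineage cells with a Klhl31 UMI, 8.51% of 94 Insm1-mutant cells and 7.004% of 257 Tead1/2-mutant cells also had a Trim55 UMI, against 0.677% and 1.14% of cells without Klhl31. For Klhl41 these shares were 2.13% and 2.72% (2 and 7 cells) against 0.601% and 1.02%. For Myog they were 4.26% and 3.89% (4 and 10 cells) against 0.808% and 0.901%. Myog was thus also found more often in cells with a Klhl31 UMI, though in few cells. Cells were pooled over clusters and libraries, so detection in the same cell and membership of the same cluster cannot be told apart. Cluster 1 was left unnamed because its leading genes held more granule neuron than granule progenitor markers. It carried 9 progenitor markers including Atoh1 and 2 of the 21 skeletal muscle markers. Its 1658 Insm1 and 237 Tead1/2 mutant cells had a mean Klhl31 of 15.8 and 57.5 CPM. Granule neuron-like clusters differed: cluster 28, with 1245 cells, all from mutants, had Klhl31 at 16.7 CPM (2.61% of thinned cells) and Klhl41 at 4.58 CPM. Cluster 17, with 1595 mutant cells of 1596, had them at 1.74 and 3.79 CPM. These are descriptions with no test.

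**Figure D5:**
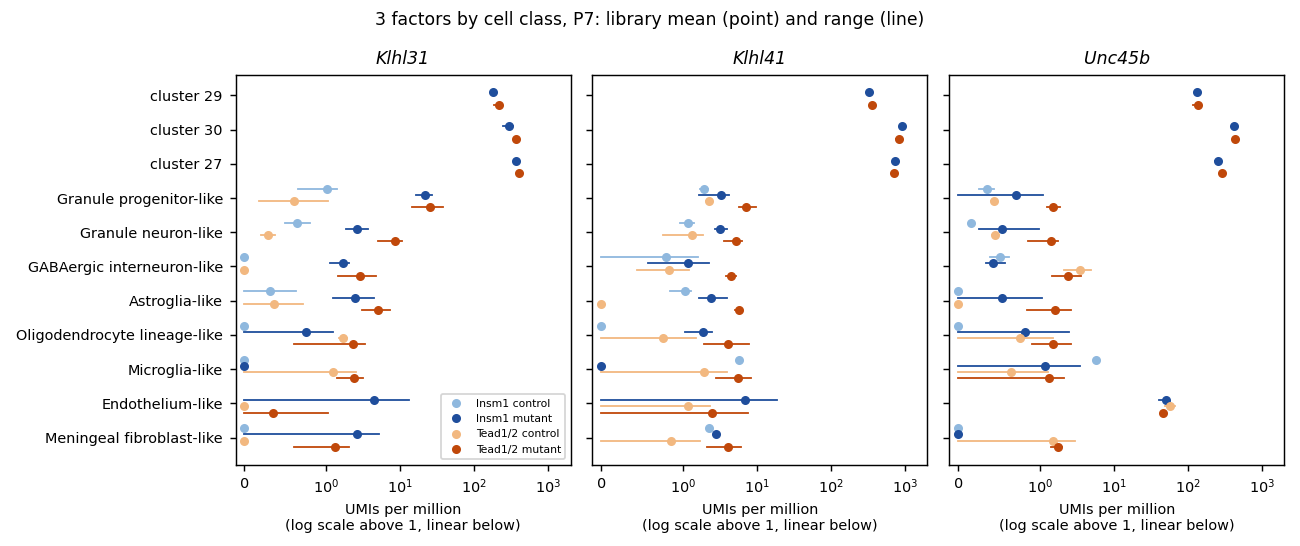
CPM of Klhl31, Klhl41 and Unc45b by cell class in P7 cells not marked by Scrublet, as the mean (point) and range (line) over libraries with 20 cells or more of the class, on an axis that is linear below 1 and logarithmic above. Klhl31 stands above the other named non-muscle classes in granule progenitor-like cells of the mutants, and Unc45b stands near 50 in endothelium-like cells of controls and mutants.

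Unc45b was also found outside muscle-like cells, in controls and mutants. In 429 endothelium-like cells (cluster 31, 7 of 7 endothelial markers, none of the 21 muscle markers among its genes), the 2 Tead1/2 control libraries had 49.3 and 65.8 CPM of Unc45b, with 45.2, 45.7 and 46.5 in Tead1/2 mutants and 41.1, 54.6 and 55.0 in Insm1 mutants. The 2 Insm1 control libraries had no cell in this cluster. Over the endothelium-like cells of all kept cells, which include cells that Scrublet marked, Unc45b was 10.1 and 12.8 CPM without Cre and 32.4 to 38.4 CPM with it for Insm1, and 23.8 and 42.1 CPM without Cre and 54.2 to 83.0 CPM with it for Tead1/2, so mutants stood above controls in that set and not in the other. These levels were not tested. Between 22.8% and 37.2% of these cells in each library had an Unc45b UMI before thinning, at a median depth of 5822 UMIs, and 7.76% of them did after thinning to 2000 UMIs. In every other non-muscle class the mean was at most 5.78 CPM in any group. Klhl41 and Trim55 in endothelium-like cells were at most 18.3 and 15.7 in any library, and Unc45b over whole control libraries was 0.732 to 1.14 CPM.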

How the data were processed

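Bulk P2 values are expected counts per gene that the authors deposited, made with STAR 2.7.9a and RSEM 1.3.3 per the submitters' processing notes, on mouse annotation. They were rounded to whole numbers, and spike-in rows were left out. P7 values are UMI counts per cell and gene as deposited by the authors, from a split-pool kit per the labels' protocols. No P7 aligner is given in the sources used here. The chromatin data were not analysed here.

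Cells were kept from 1000 UMIs and 500 genes upward when mitochondrial UMIs made up less than 15%, and the 4% of cells with the highest Scrublet scores were removed in each library. UMIs were summed per library and class, since cells are not replicates. Genes were tested with edgeR 4.0.16 (R 4.3.3): TMM scaling, its low-count filter, quasi-likelihood test and Benjamini-Hochberg adjustment over all genes tested, at 0.05. Each SE is the size of the log2 change divided by the square root of the test's F statistic, and is unreliable where the change is near 0. A factor's controls alone reached the filter's level where enough control libraries of the allele compared were at its CPM cutoff. At P7 the filter itself ran over all 10 libraries. Scripts were tested on simulated data. Alternatives were DESeq2 1.42.0, no filter, a replicate block (the dissection at P7), other doublet removal and each library left out. Clustering of cells not marked by Scrublet, a sex term and leaving out mutant 4 with other changes were chosen after seeing the data. Clusters came from scanpy 1.11.5 and leidenalg 0.10.2 without the 10 factors, and were named from fixed markers. Intervals are 95% and, like the floor of 3 counts, cover counting error only. Labels give 1 cerebellum per library, so p-values measure the spread between animals.

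The rule for named genes covered all 10 factors, as far as each comparison tested them. The 4 lists (17 relatives, 26 filament and Z-disc genes, 22 chaperone and ligase partners, 12 transcription factors) are given by counts and medians, with at most 4 called genes of smallest p named from each. The members and lists were chosen with earlier results of these data known. Same-numbered libraries did not deviate together (r of -0.131 to 0.227 at P2 and -0.121 to 0.0309 at P7), so the numbers were not taken as pairs.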

Additional observations from a re-analysis of the deposited data

Results flagged for a closer look

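At P2, Lmod3 in control 2 of the Insm1 series stood apart from the other 3 controls, with the gap to the nearest taking 1.000 of the group's range (0.0269 CPM, 1 count, against 0). Trim54 in mutant 2 of the Tead1/2 series did so as well, with 1.000 of the range (0.0163 CPM, 1 count, against 0). Both rest on 1 count. The cutoff would mark about 1 in 20 groups of normally spread values, and 29 groups were examined. Where all other libraries of a group are at 0, the value is 1.000 in every case, so that rate does not apply here.

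At P7, the Tead1/2 effect differed from the Insm1 effect, by a test of the difference in edgeR, for Klhl31 (1.79 on the log2 scale), Smyd1 (1.40), Klhl41 (1.37) and Lmod3 (1.23). These are differences over whole libraries, in which muscle-like clusters took different shares of cells.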

How the results depend on the processing

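Counts after the low-count filter include factors that did not reach its level in the controls of their own allele, as named above. At P2 these are Klhl31, Lmod3 and Trim55 for Insm1, and Klhl31 and Trim55 for Tead1/2. Their calls are not used as support. With 1 replicate left out at a time, the number of factors called was 6 to 6 for Insm1 at P2, 0 to 5 for Tead1/2 at P2 and 0 to 0 for their difference. It was 10 to 10 for each allele at P7, 3 to 5 for the P7 difference, 4 to 5 and 4 to 8 in the granule lineage (Insm1, Tead1/2) and 9 to 10 in muscle-like cells. In those fits 0.323% to 0.667%, 0% to 3.19%, 0% to 0.0381%, 23.3% to 36.9% and 34.7% to 48.6%, 0.85% to 4.88%, 12.2% to 23.3% and 13.2% to 24.2%, and 19.8% to 30.5% of all genes were called, in the same order. The difference in share of cells with a factor UMI was 17.5 to 19.3 and 26.4 to 32.0 percentage points. That difference was 12.8 and 23.7 points in cells that Scrublet left at its own threshold, and 24.2 and 35.3 points without thinning. For Tead1/2 at P2 the call count was 4 with DESeq2 and 4 with DESeq2 without mutant 4, and 5 with no low-count filter, with the replicate block, with the block without mutant 4, without mutant 4, and without mutant 4 and any 1 further library. Of all genes, 2.95% were called with DESeq2 without mutant 4, 1.17% with the block, 1.09% with the block without mutant 4 and 1.12% to 3.57% without mutant 4 and 1 further library. The P7 difference had 2 calls over all deposited barcodes (2.53% of all genes). Muscle-like cells had 0 calls in clusters of cells not marked by Scrublet, 1 in cluster 29 and 1 in cluster 30, and the cause was not tested. The replicate block took the Insm1 P2 count to 5, as Smyd1 (1.93) had an adjusted p of 0.0566 (0.327% of all genes called), and left 10 at P7 (34.2% and 48.1%). With a sex term, 0 factors passed for Tead1/2 at P2 (0.0148% of all genes) and 0 for the P2 difference (0% of all genes).

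Signs changed only for values that did not pass, apart from Klhl41 (-0.092 in cluster 30) and Trim55 in muscle-like cells (-0.41 in cells not marked by Scrublet, -0.42 in cluster 29, -0.47 in cluster 30). With 1 replicate left out, the far ends of the ranges of values that changed sign were -0.61 for Klhl31, -0.27 for Klhl40 and -0.33 for Smyd1 in the P2 difference, 0.66 for Trim54 in the P7 difference, and -0.28 for Klhl40 and -0.13 for Smyd1 in the Insm1 granule lineage. In the P2 difference, Klhl31 was 0.053 with the block, 0.074 without mutant 4 and 0.082 with DESeq2 without it, Klhl40 was 0.039 without Tead1/2 control 3, and Smyd1 was 0.14 with the block, 0.0071 without Insm1 control 4, 0.16 without mutant 4 and 0.17 with DESeq2 without it. In the P7 difference, Unc45b was -0.089 at Scrublet's threshold, Trim55 was -0.37 over all barcodes, and Trim54 was -0.0046 with DESeq2 and -0.19, -0.23 and -0.14 without Insm1 control 1, Tead1/2 control 2 and Tead1/2 mutant 1. In the granule lineage, Insm1 Klhl40 was 0.19, 0.037 and 0.074 without control 2, mutant 1 and mutant 3, Insm1 Smyd1 was 0.090 and 0.029 without control 1 and mutant 1 and 0.032 in cells not marked by Scrublet, and Tead1/2 Klhl40 was 0.056 without control 2. The cause was not tested. At P2, 0 to 38 counts per library limit Lmod2, Lmod3, Trim54 and Trim63.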
